A study of Mus musculus with 11 samples.

Results

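The Tcrb and Tcrg loci encode the beta and gamma chains of the T cell receptor. They were taken here as the windows of mouse build mm9 on chromosome 6 from 40800000 to 41560000 (Tcrb, from the V segments to the beta enhancer) and on chromosome 13 from 19240000 to 19470000 (Tcrg). Of 120616 peaks in 6 deposited peak lists, 163 lay in these windows, 148 at Tcrb and 15 at Tcrg, and every peak that overlapped a window by at least 1 bp was a member. Chromatin immunoprecipitation with sequencing had been made from CD4+ CD8+ double positive thymocytes, sorted from mice that were 6 weeks old. Rad21-/- cells (KO), in which a floxed Rad21 allele was deleted by a Cre transgene driven by Cd4, gave 2 libraries of histone H3 acetylated at lysine 27 (H3K27ac). Wild-type cells from control littermates (WT) gave 2 H3K27ac libraries and 2 libraries of Smc1a. Cre under Cd4 acts from the double positive stage on, so it acts after most Tcrb rearrangement, and the labels do not say whether the controls carried Cre or the floxed allele. No KO library of Smc1a was analysed here, and whether the paired libraries were made from different mice is not stated.

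A T cell receptor gene is assembled from V, D (at Tcrb) and J segments by the RAG recombinase, and its transcription and rearrangement depend on enhancers near the constant segments. Tcrb is rearranged in double negative thymocytes before the double positive stage, and a completed beta chain is expressed by double positive cells. Tcrg belongs to the gamma delta lineage and is largely silent in double positive cells of the alpha beta lineage. H3K27ac marks active promoters and enhancers. Rad21 and Smc1a are subunits of the cohesin ring, which forms chromatin loops and stops at sites bound by CTCF. In the RefSeq annotation of build GRCm38, Tcrb holds 35 Trbv entries (13 of them pseudogenes), 2 Trbd, 14 Trbj and 2 Trbc entries, with 13 protein-coding genes of other families inside it, among them the trypsinogen genes Prss1 and Prss2. Its neighbours are Moxd2 and Ephb6. Tcrg holds 7 Trgv, 4 Trgj and 4 Trgc entries, and its next protein-coding gene is Stard3nl. No annotation or genome of mm9 was used, so peaks below are named by position and were not assigned to a segment, promoter or enhancer. For the same reason neither the deletion of Rad21 nor the marker genes of the cell type could be looked up in the lists.

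The H3K27ac lists held 19503 and 20244 peaks in KO and 21973 and 15686 peaks in WT libraries, and the Smc1a lists 25484 and 17726. No peak of any list was identical in position to a peak of another list. The score of a peak is the authors' value from their peak caller, and it is given below with its percentile within its own list, since the lists were called separately. Peaks are calls: a missing peak is a missing call and not a measured absence of the mark. The lists hold no reads, so depth is unknown.

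Tcrb was a richly acetylated locus, with a broad block of H3K27ac near one end, clusters of shorter regions toward the other and a long gap between them. Overlapping or touching H3K27ac peaks of the 4 libraries merged into 28 regions, numbered here from the start of the window. Counting from that start, single or paired regions came first, then 2 groups of 8 and 6 regions between 41062129 and 41178289, then 1 short region at 41221023. A stretch of 221081 bp without a peak in any H3K27ac library or a reproducible Smc1a site followed, from 41222292 to 41443372. Beyond it lay 1 more short region and then the longest acetylated region of the locus, which ran from 41480280 to 41513180 (32901 bp). The last region, from 41553734 to 41558506, closed the window. Whether it belongs to Tcrb or to its neighbour Ephb6 was not resolved without an mm9 annotation.

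**Figure D1:**
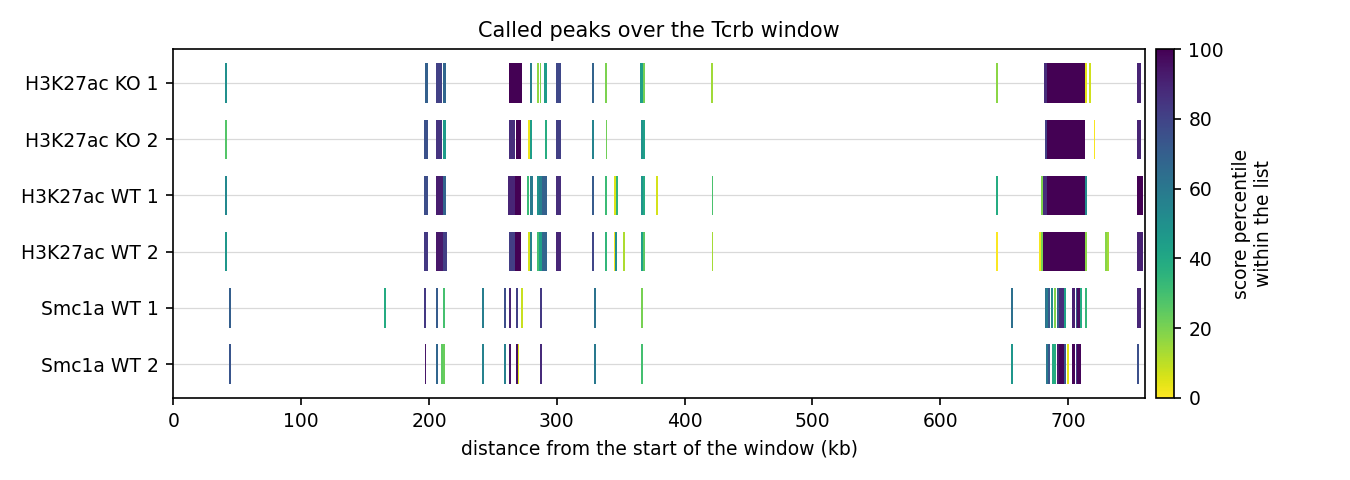
Called peaks of the 6 libraries over the Tcrb window. The horizontal axis is the distance from the start of the window in kb, each row is a library, and the colour gives the percentile of the peak's score within its own list; the narrowest peaks are drawn wider so that they can be seen. The broad block near the right end is the region of 32901 bp, and it has a peak near the top of every H3K27ac list.

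The longest region was among the top-scored calls of the locus in every list. Its best peak had a score of 3100 in each of the 4 lists, a value at which many H3K27ac peaks were tied. Peaks of 3100 or more made up 5.91% and 6.54% of the KO lists and 6.98% and 5.02% of the WT lists. Tied peaks are given the highest percentile of their tie. That was percentile 99.7 of KO replicate 1, 99.6 of KO replicate 2, 99.6 of WT replicate 1 and 99.7 of WT replicate 2, so these are upper limits of its rank. It was covered over 31603 and 31129 bp in the KO libraries and over 32618 and 32901 bp in the WT libraries, so that KO averaged 95.7% of WT. The KO values lay below the WT values, but the region was nearly as long in both genotypes. Its right ends lay close together, at 41513130 and 41513154 in KO and at 41513173 and 41513180 in WT libraries, a range of 50 bp over 4 libraries. Its left border lay farther in, at 41481259 and 41481861 in the KO libraries, against 41480369 and 41480280 in the WT libraries. The shift was between 890 and 1581 bp, depending on the libraries paired. In both KO libraries and WT replicate 1 this border was the edge of a separate short peak left of the broad one. The broad peak itself began at 41483736 and 41483726 in KO and at 41483531 in WT replicate 1. In WT replicate 2 the whole region was a single peak. Just left of the region, a weak one from 41479120 to 41480103 was called in both WT libraries (836 and 984 bp) and in neither KO library.

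Cohesin was dense in this region. Reproducible Smc1a sites, where merged peaks came from each of the replicates, numbered 23 in the Tcrb window, and 10 of them lay in the longest region. Together they covered 17249 bp, or 52.4% of its length. Among the 100 regions of at least 20000 bp that were called in both WT libraries, 1 had a larger share of its length in Smc1a sites and 2 had more sites, while 23 were longer. The median of these 100 regions was a share of 17.5% and 3 sites. The sites were also wide. That from 41492544 to 41496646 was 4103 bp long, longer than 99.5% of all reproducible sites, which had a median of 773 bp. It was covered over 3998 bp in Smc1a replicate 1 and 4100 bp in replicate 2, with scores of 569.11 (percentile 87.7) and 983.54 (percentile 99.2). The site from 41507189 to 41509967 had the highest score of the locus in replicate 1, 1028.7 at percentile 96.8, and 892.01 at percentile 98.8 in replicate 2. The site from 41502775 to 41505366 followed with 691.47 (percentile 91.4) and 893.22 (percentile 98.8).

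**Figure D2:**
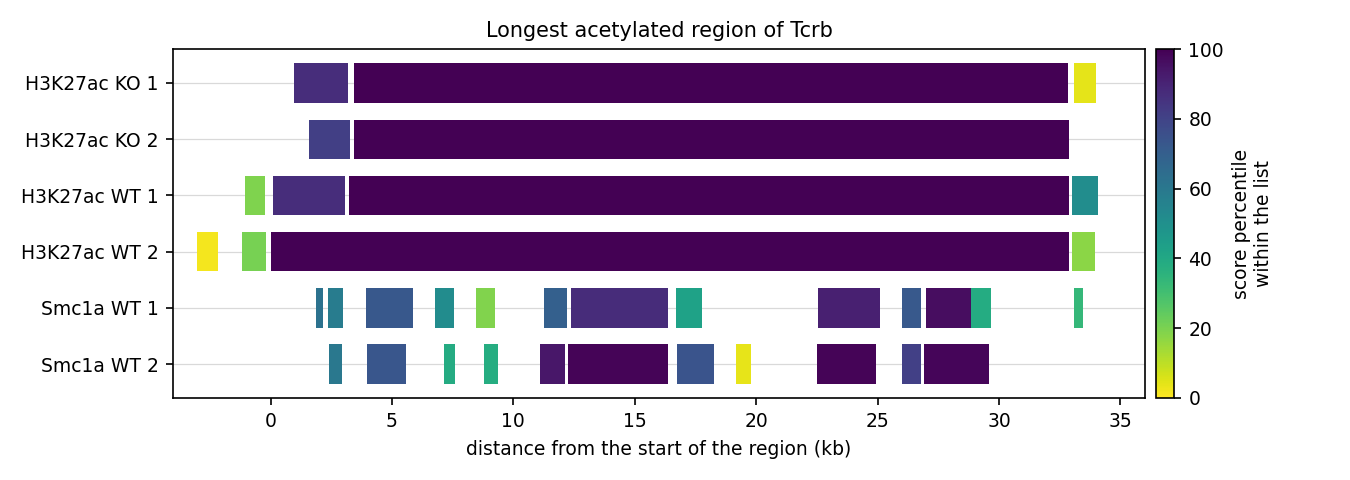
Called peaks of the 6 libraries around the longest acetylated region of Tcrb. The horizontal axis is the distance from the start of the region in kb, and colours are score percentiles within each list. The right ends of the 4 broad peaks line up within 50 bp. The left border of the region in both KO libraries lies inside that of both WT libraries. In all but WT replicate 2 this border is the edge of a separate short peak left of the broad one. Smc1a peaks of WT cells are spread over the region.

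Over the whole window, KO libraries held fewer H3K27ac calls at Tcrb than WT libraries, and these covered less of it. Peaks covered 76526 and 67451 bp in the KO libraries and 88432 and 90871 bp in the WT libraries. The means were 71988.5 ± 6417 bp in KO and 89651.5 ± 1725 bp in WT (SD, n = 2 each), a difference of -17663 bp or -19.7%. The groups did not overlap (two-sided exact permutation test, p = 0.333), and since 0.333 is the lowest p that a design of this size can give, it cannot reach 0.05. Peaks numbered 22 and 18 in the KO libraries and 26 and 28 in the WT libraries, again without overlap (two-sided exact permutation test, p = 0.333). The single peaks did not differ in width beyond their spread, with medians of 1974 and 1807.5 bp in KO and 2086.5 and 1659 bp in WT libraries (two-sided exact permutation test, p = 1). As a share of all covered length of its library, Tcrb took 0.145% and 0.142% in KO and 0.157% and 0.199% in WT libraries, and here too the groups did not overlap. No background over the genome was computed for this scaled measure.

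For the unscaled covered length and peak number, how common such a separation was elsewhere was read from tiles of the same length over the genome. Of 2332 tiles with a peak, both KO libraries had less covered length than either WT library in 302 (13.0%) and more in 561 (24.1%), and peak number was lower in 87 (3.73%) and higher in 273 (11.7%). Tcrb is richer than most tiles, since 81 of the 2332 (3.47%) had a greater mean covered length. Among the 388 tiles with a mean covered length of at least 0.5 times that of Tcrb, a setting chosen after seeing the data, covered length was lower in both KO libraries in 117 (30.2%) and higher in 18 (4.64%). Peak number was lower in 43 of them (11.1%) and higher in 21 (5.41%). A lower KO coverage was thus common among similarly acetylated tiles, and a lower peak number less so.

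**Figure D3:**
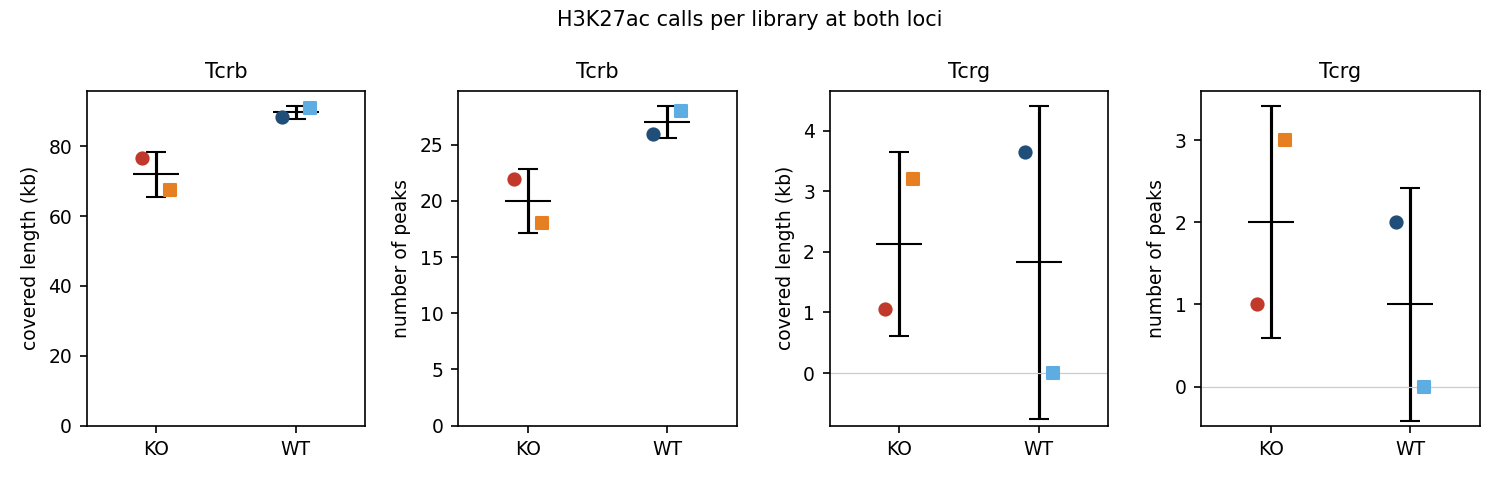
H3K27ac covered length (kb) and number of peaks per library at Tcrb and Tcrg. Circles are replicate 1 and squares replicate 2, horizontal bars are group means and error bars are SD (n = 2 libraries each). At Tcrb both KO libraries (67451 and 76526 bp) lie below both WT libraries (88432 and 90871 bp), and at Tcrg the groups overlap.

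The top-ranked acetylated regions of Tcrb were called in both genotypes, and the calls missing from KO libraries were of middle or low rank. No region that lacked a call in any library had a score above percentile 56.5 in another. Of the 28 regions, 13 had a peak in all 4 libraries (46.4%, against 49.6% of all union regions of the genome). WT-only regions, with a peak in both WT and neither KO library, numbered 2 (7.14%, against 2.33% of all regions), and KO-only regions numbered 0 (against 2.82%). The first WT-only region, from 41144594 to 41147319, was covered over 2005 bp with a best score of 149.62 (percentile 35.1) in WT replicate 1 and over 2673 bp with 230 (percentile 51.2) in WT replicate 2. The second was the short region left of the longest one, with scores of 86.24 (percentile 19.3) and 84.87 (percentile 20.4). Each of the 13 regions called in both KO libraries was also called in both WT libraries (75.7% of all such regions). Of the 21 regions called in both WT libraries, 3 had no peak in KO replicate 1 and 7 had none in KO replicate 2 (6.32% and 8.96% of all such regions). The KO libraries thus differed from each other in the number of calls they lacked. With 1 library left out, a class needs fewer calls, and the WT-only count was then 7 without KO replicate 1, 3 without KO replicate 2, 7 without WT replicate 1 and 5 without WT replicate 2, counted over both loci. The KO-only count was 3 without KO replicate 1, 1 without KO replicate 2 and 1 without WT replicate 1. Shares over all regions of the genome were not computed with a library left out. These counts thus have no background and cannot be called high or low. A further 7 regions were called in 1 library alone (25.0%, close to the 21.1% of all regions), 4 of them in WT replicate 2, and none of the 7 was longer than 1383 bp.

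Where regions were called in all 4 libraries, the KO peaks were mostly a little shorter. Both KO values were below both WT values in 8 of the 13 regions, against 22.9% of 12129 such regions of the genome, and higher in both KO libraries in 0 of 13, against 17.4%. The median KO coverage was 89.5% of WT over the 13 regions, with a range from 45.0% to 113%, and 98.4% over the 12129. With each value divided by the total covered length of its library, 4 of the 13 were lower and 1 was higher in both KO libraries, against 15.8% and 11.8% of all regions of the genome, so the count depended on the scaling. Without KO replicate 1, lengths were lower in KO in 13 of 15 shared regions and higher in 0, against 50.9% and 24.7% of such regions of the genome. Without KO replicate 2 they were lower in 11 of 18 and higher in 3, against 29.97% and 38.3%. Without WT replicate 1 they were lower in 9 of 13 and higher in 2, against 35.7% and 31.4%, and without WT replicate 2 lower in 12 of 14 and higher in 0, against 37.5% and 31.9%. The absence of longer KO regions thus depended on KO replicate 2 and WT replicate 1. The borders of the peaks were counted as well. Of the 26 borders of these regions, 16 lay inward in both KO of both WT libraries (9 left and 7 right), against 20.7% of 24258 borders of the genome, and 1 lay outward, against 17.2%. Each region gives both of its borders to this count, so it repeats the lengths in part. A step of any size counted, at Tcrb and over the genome. The smallest distance between a KO and a WT border ran from 7 to 1584 bp over the 16 inward borders. The right end of the longest region was among these, with 19 bp.

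The difference was uneven between regions. That from 41088481 to 41092065, chosen after its values were seen, had 1859 and 1316 bp under peaks in the KO libraries, against 3553 and 3495 bp in the WT libraries, so that KO averaged 45.0% of WT. The missing part was on its left, where both KO peaks began between 1584 and 2077 bp inside the WT peaks. The last region of the window had 3172 and 2736 bp under peaks in the KO libraries and 4717 and 4682 bp in the WT libraries (62.9%). Its best scores were 2127.54 and 2187.28 in KO and 3100 and 1961.74 in WT lists, so the scores overlapped while the lengths did not. Its right border lay between 1288 and 1719 bp inward in KO. In these 2 regions the gap between the genotypes was larger than the gap between the libraries of either.

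**Figure D4:**
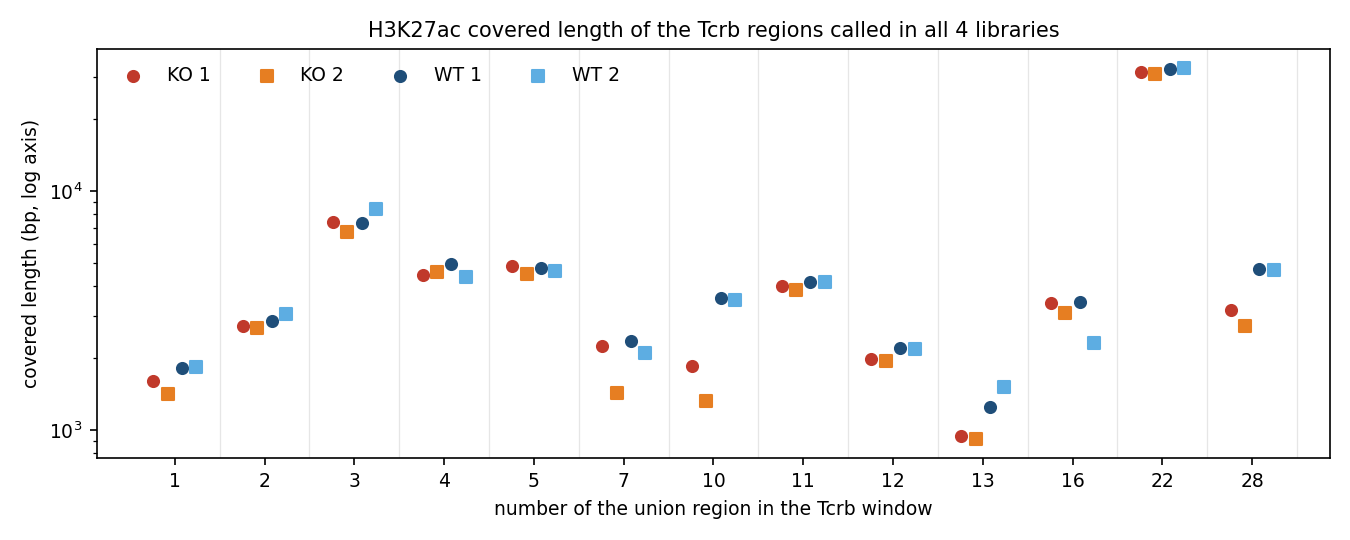
H3K27ac covered length of the 13 Tcrb regions called in all 4 libraries, on a log axis in bp, by the number of the region along the window. Circles are replicate 1 and squares replicate 2 of KO (red and orange) and WT (dark and light blue). Regions 10 and 28 have the lowest KO coverage relative to WT (45.0% and 62.9%), and in regions 3, 4, 5, 7 and 16 the groups overlap.

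Apart from the last region of the window, the other strong regions lay in its upstream part. The longest of them, from 41005437 to 41013864 (8428 bp), had 7414 and 6731 bp under peaks in KO libraries and 7391 and 8414 bp in WT libraries, so the groups overlapped. Its best scores were 1114.78 (percentile 80.6) and 1525.92 (percentile 85.1) in KO and 2697.54 (percentile 91.9) and 2613.92 (percentile 93.5) in WT lists. Its rank was thus lower in both KO lists while its length overlapped. The region from 41067575 to 41072442 (4868 bp) was tied at 3100 in all 4 lists and had 4851 and 4507 bp in KO and 4757 and 4626 bp in WT libraries. Its neighbour from 41062129 to 41067088 (4960 bp) had 4456 and 4582 bp in KO and 4934 and 4351 bp in WT libraries. Its best scores were 3121.80 (percentile 99.7) and 1700.41 (percentile 86.8) in KO and 2204.61 (percentile 89.7) and 960.51 (percentile 82.0) in WT lists, so its ranks overlapped. In KO replicate 1 its score lay above 3100, the value at which the longest region was tied with many other peaks. At these neighbouring regions KO averaged 99.7% and 97.3% of WT, with overlapping groups. The other regions of all 4 libraries that held a Smc1a site were shorter. That from 40996393 to 40999463 had 2715 and 2683 bp in KO and 2855 and 3071 bp in WT libraries. That from 41127179 to 41129436 had 1990 and 1941 bp in KO and 2204 and 2188 bp in WT libraries, and in both of these regions the KO values were the lower. That from 41165457 to 41168955 had 3403 and 3090 bp in KO and 3450 and 2307 bp in WT libraries, so the groups overlapped, and it was the region with the highest KO coverage relative to WT (113%).

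Along the window, the largest loss of covered length in bp lay in the cluster that begins with those neighbouring regions. Split at gaps of at least 20000 bp, a division made after seeing the data, the window fell into 8 stretches, and the KO libraries had the lower coverage, without overlap, in 7 of them. Of 11191 stretches of the genome split in the same way, KO coverage was lower without overlap in 13.2% and higher in 22.7%. These stretches were not matched to Tcrb for covered length. Among the tiles above, the lower share was 13.0% over all and 30.2% among similarly acetylated ones. From 41062129 to 41103248, KO libraries had 19844 and 16299 bp and WT libraries 25109 and 22823 bp, or 75.4% of WT. From 41127179 to 41178289, KO libraries had 6334 and 5944 bp and WT libraries 9859 and 9629 bp, or 63.0%. The stretch with the longest region, from 41477250 to 41531814, kept 89.6% of WT coverage, with 33316 and 31650 bp in KO and 34492 and 38047 bp in WT libraries. The short region at 41443373 was the exception, with 1156 bp in KO replicate 1, no peak in KO replicate 2, and 1084 and 1136 bp in the WT libraries. Relative to WT, the stretch with the lowest KO coverage was the short region at 41221023 (41.3%), where KO replicate 2 had no peak.

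Smc1a sites were crowded at Tcrb and lay mostly on acetylated chromatin. The 23 reproducible sites gave 30.3 sites per Mb, against 5.64 per Mb over the span of the chromosomes that the lists reach. Of the 23, 19 (82.6%) overlapped a region called in both WT libraries, against 22.2% of 14848 reproducible sites of the genome. Since 10 of the 19 lay in a single region, the sites are not independent of each other. Outside the longest region, regions 2, 3, 4, 5, 9, 12, 16 and 28 held the other 9. The site from 41062703 to 41063952 was the strongest of these in replicate 1, with scores of 640.44 (percentile 90.0) and 528.07 (percentile 94.6). The site in the last region, from 41554072 to 41556827, was 2756 bp long in the merged set, with scores of 610.87 (percentile 89.1) and 225.83 (percentile 75.5). A further 4 peaks of replicate 1 and 3 of replicate 2 in the window had no partner in the other replicate.

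Most acetylated Smc1a sites of Tcrb were also under H3K27ac calls in KO cells, as they were over the genome. Of the 19 sites, 18 overlapped a peak of both KO libraries, against 88.1% of 3303 such sites of the genome, and 10 of the 18 lay in the longest region. The exception was the site from 41086689 to 41087431, a strong one at percentile 83.4 of replicate 1 and 87.9 of replicate 2. The H3K27ac region around it, from 41086236 to 41088470, had 1038 bp under peaks in KO replicate 1, no peak in KO replicate 2, and 2235 and 1809 bp in the WT libraries. Among the regions called in all 4 libraries, 8 of the 13 at Tcrb held a Smc1a site (61.5%, against 20.3% of all such regions). Covered length was lower in both KO libraries in 4 of these 8, against 35.8% of such regions of the genome, and in 4 of the 5 without a site, against 19.7%. With 8 and 5 regions, these counts do not tell the classes apart, and no test was made of them.

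The 4 Smc1a sites outside acetylated chromatin bordered it or stood in the gaps. The site from 40843359 to 40844044 lay 1145 bp beyond the first region of the window. The site from 41058785 to 41059347 lay 2781 bp from the nearest region, on the side of the strong region that starts at 41062129. The site from 41455223 to 41455876 lay 10538 bp beyond the short region that follows the long gap, and that from 41041209 to 41041765 lay 20363 bp from any region. Their percentiles ran from 57.4 to 76.3 in replicate 1 and from 47.7 to 73.5 in replicate 2, so none was among the strongest of its list. None overlapped an H3K27ac peak of either KO library.

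Tcrg was nearly free of H3K27ac calls in both genotypes. KO libraries held 1 and 3 peaks there and WT libraries 2 and 0. They covered 1061 and 3204 bp in KO and 3650 and 0 bp in WT libraries, with means of 2132.5 ± 1515 bp in KO and 1825 ± 2581 bp in WT (SD, n = 2 each). The groups overlapped (two-sided exact permutation test, p = 1), and the mean difference of 307.5 bp was smaller than the SD of either group. It was -764 bp without KO replicate 2 and -1517.5 bp without WT replicate 2, so it had no stable sign. The difference in peak number was 1 (two-sided exact permutation test, p = 0.667), and 0 with either of these libraries left out. Of 5282 tiles of the same length with a peak, covered length was lower in both KO libraries in 13.6% and higher in 24.5%, and peak number was lower in 3.81% and higher in 8.77%. Of these tiles, 78.0% had a greater mean covered length than Tcrg.

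The Tcrg peaks formed 4 regions, none of which was called in all 4 libraries. The first, from 19273743 to 19275321, had 1061 bp under peaks in KO replicate 1, 1579 bp in KO replicate 2, 940 bp in WT replicate 1 and 0 bp in WT replicate 2. Its scores were low, 113.62 (percentile 25.3) and 92.74 (percentile 20.2) in the KO lists and 61.18 (percentile 7.63) in the list of WT replicate 1. Both KO lengths lay above both WT lengths there, but WT replicate 2, the shortest of the 4 lists, had no call. No background was computed for regions that lack a call in a library. KO replicate 2 alone had the regions from 19276443 to 19277387 and from 19428691 to 19429370, at percentiles 6.81 and 8.73. WT replicate 1 alone had a region of 2710 bp from 19447744 to 19450453, with a score of 286.49 at percentile 51.5, the strongest H3K27ac call of the window. This last region lies near the end of the window, and whether it belongs to Tcrg or to Stard3nl, the next gene, was not resolved.

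**Figure D5:**
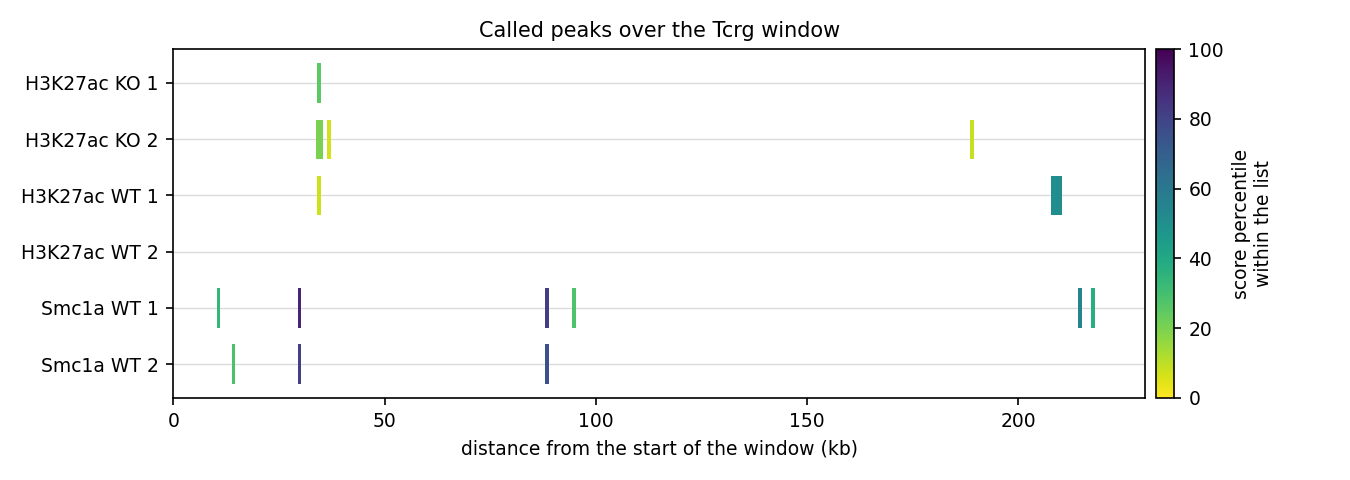
Called peaks of the 6 libraries over the Tcrg window, by distance from its start in kb, coloured by score percentile within each list; the narrowest peaks are drawn wider so that they can be seen. H3K27ac peaks are few and weak, WT replicate 2 has none, and 2 Smc1a sites are called in both replicates.

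Cohesin was called at Tcrg without acetylation, which was the common case over the genome. Of 14848 reproducible Smc1a sites, 11545 lay outside the regions called in both WT libraries. The Tcrg window held 2 reproducible sites, or 8.70 per Mb, and neither overlapped an H3K27ac peak of any library. The first, from 19269414 to 19270245, had scores of 648.26 (percentile 90.2) and 266.39 (percentile 80.5) and lay 3497 bp from the weak region at 19273743. The second, from 19328033 to 19328795, had 434.78 (percentile 81.5) and 222.96 (percentile 75.1) and lay 50645 bp from any H3K27ac region. Both were thus of the upper part of their lists and stronger by rank than the 4 Tcrb sites outside acetylated chromatin. A further 4 peaks of replicate 1 and 1 of replicate 2 had no partner.

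The loci were also set against each other within each library. The covered share of the Tcrb window minus that of the Tcrg window averaged 8.54 ± 1.5 percentage points in KO and 11.0 ± 1.35 in WT libraries (SD, n = 2 each). The difference was -2.46 points, with both KO values below both WT values (two-sided exact permutation test, p = 0.333, the smallest this design allows). It was -1.39 without KO replicate 2 and -1.5 without WT replicate 2, so each of these libraries moved it by more than 1.5 times. The covered share alone differed by -2.32 points at Tcrb and by 0.134 points at Tcrg, where the groups overlapped. The contrast thus mostly repeats the difference at Tcrb, and no background over the genome was computed for it.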

How the data were processed

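Peak lists of 4 H3K27ac and 2 Smc1a libraries were analysed, and the 5 input libraries were not analysed here. The submitters' processing notes list Bowtie 0.12.8 and build mm9, and per the file contents the peak names begin with MACS. The deposited score of each peak is the authors' value from their peak caller, whose version, settings and choice of input were not stated in the labels or files, and start and end positions are as the authors deposited them, printed counted from 1. Each list holds 1 library.

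Covered length was the number of bases of a window under at least 1 peak, cut at the window's edge. Union regions merged overlapping or touching H3K27ac peaks of the 4 libraries, and any overlap of 1 bp or more counted as a call of that library. A tile was a stretch of the window's length, laid end to end from each chromosome's start. Groups of 2 libraries were compared with exact permutation tests, whose p-values measure the spread between these samples, which may be technical. A planned log2 ratio of Tcrb to Tcrg could not be computed, since 1 WT library had 0 bp at Tcrg, and the difference in covered share was used. Functions were tested on simulated data. Python 3.11.15, numpy 2.4.6, pandas 2.3.3 and matplotlib 3.10.9 were used.

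The loci, lists and measures were chosen with earlier results of these data known. Values per library are given for the 5 longest regions of each locus, WT-only and KO-only regions, regions with a Smc1a site, and the 5 sites per locus with the highest score in replicate 1; others are given by counts and ranges, with exceptions named. The rule for single-gene markers needed an mm9 annotation and was not run. Alternatives were keeping only peaks in the upper 75% of scores, taking as many top peaks from each list as the shortest holds, an overlap of 50%, merging within 1000 bp, windows widened by 50000 bp, uncut peaks by midpoint, scaling to the library, each library left out, and the replicate number as a block.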

Additional observations from a re-analysis of the deposited data

How the results depend on the processing

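Of 86 recomputed values of 11 results, 66 were unchanged, 4 reversed and 16 moved. For differences between the genotypes, unchanged meant the same sign, and a difference of 0 counted as moved. For counts of regions and sites, unchanged meant within 1.5 times. No p-value entered these labels. The lower covered length of KO libraries at Tcrb kept its sign in every alternative run, from -22200.5 bp (without KO replicate 1) to -13125.5 bp (without KO replicate 2), and was -15917.5 bp without the last region of the window and -16269.5 bp without the longest, alternatives chosen after seeing the data, as were those of the shared regions. Covered length at Tcrg had no stable sign: it was -824.5 bp with the stricter threshold and with equal numbers of peaks, and -1517.5 to 2132.5 bp with 1 library left out. Peak number there differed by 0 with the stricter threshold and with equal numbers of peaks, and by 0 to 2 with 1 library left out. WT-only regions of both loci numbered 4 where a peak had to cover 50% of the region, 4 with the stricter threshold, 6 with equal numbers of peaks, 1 with merging within 1000 bp, and 3 to 7 with 1 library left out, where fewer lists have to agree. KO-only regions then numbered 0 to 3. For these alternatives no WT-only or KO-only shares over all regions of the genome were computed, so the counts have no background. Tcrb regions shorter in both KO libraries numbered 8 of 13, 4 after scaling to the library total, and 9 to 13 of 13 to 18 shared regions with 1 library left out, where 0 to 3 were longer in KO. The cause of these changes was not tested. With the replicate number as a block, the difference at Tcrb stayed at -17663 bp by construction (sign-flip permutation over 2 pairs, p = 0.5, the smallest it allows). Deviations of same-numbered libraries from their group means correlated at 0.0283 over 24430 regions, so the called lengths showed no shared effect of the replicate number. This cannot settle whether same-numbered libraries were prepared together. The alternatives for Tcrb against Tcrg by log2 ratio were not run.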
